A study of Rattus norvegicus with 8 samples.

Results

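Described here are 8 genes whose signal, at the brightest probe of each, was weaker in the liver of rats given furan than in control liver: Stac3, Sez6, Srms, Mmd2, Chrdl1, Nkx1-2, Morn3 and Zp3r. They were chosen by their measured falls between these same furan and control arrays, outside the known families of metabolic genes, so the falls themselves are given as a description and carry no test. The 8 genes hold 10 of the 30367 non-control probes of the array, printed as 16 spots, and 8 of the 17786 features (genes, or probes without a gene symbol) that were bright enough to be compared. All 8 passed that brightness filter, 5 of them through the control arrays alone, where they were chosen to be high.

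The samples were livers of male Fisher 344 rats, an inbred laboratory strain, aged 18 weeks. Of the 8 rats, 4 received 8 mg of furan per kg of body weight by gavage, 5 doses a week, through 90 days, and 4 were controls whose vehicle is not given in the sources used here. The labels place the killing of control and furan rats alike 24 hours after the last dose, and RNA came from snap-frozen whole liver, so every cell type of the organ contributed. In such bulk samples, fewer cells of a type and less RNA per cell cannot be told apart. One Agilent array, read in 1 colour, was hybridised for each animal.

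Furan is a small heterocycle that cytochrome P450 enzymes of the hepatocyte turn into a reactive dialdehyde, and it is a liver toxicant and carcinogen of rodents. The 8 genes do not form 1 pathway, and most are best known outside the liver. Stac3 and Srms act inside the cell in signalling, Sez6 and Mmd2 are membrane proteins, Chrdl1 is secreted, Nkx1-2 is a transcription factor, and Morn3 and Zp3r are known from sperm.

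A level below is the log2 processed signal of a probe minus the log2 75th percentile of the non-control spots of its array, so that 0 is the brightness of that percentile and 1 unit is a 2-fold step. A probe counted as well above background on an array where the scanner software said so for no fewer of its usable spots than not. The 75th percentile ran from 827 to 1057 intensity units in controls and from 1256 to 1596 after furan, and its mean log2 value was 0.59 higher on the furan arrays. Correlations between arrays, across features, were 0.980 to 0.992 within controls, 0.979 to 0.993 within the furan group and 0.953 to 0.980 between them. Slide 1 carried replicates 1 and 2 of each group, and slide 2 carried replicates 3 and 4. All 10 hepatocyte markers, among them albumin and transthyretin, were well above background on all 8 arrays. In limma's test with Benjamini-Hochberg adjustment at 0.05, 2994 of the 17786 features (16.8%) were lower and 3075 (17.3%) higher after furan. With normexp, another background correction that models signal and background together, the split was 6050 lower and 2820 higher, and the median over all tested features moved from -0.03 to -0.18 log2 units. Scaling to the 75th percentile of only the probes well above background on all 8 arrays gave 2478 lower and 3693 higher, with a median of 0.04.

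The 8 genes fell into a set of 3 that stayed measurable after furan and a set of 5 that did not. Stac3, Sez6 and Srms were well above background on all 8 arrays, while the tested probes of Mmd2, Chrdl1, Nkx1-2, Morn3 and Zp3r were so on all 4 control arrays and on no furan array. A second, dimmer probe of Zp3r was well above background on furan 4 and on no control array. Across the whole array, 7 features (0.0394%), the 5 genes among them, were well above background on all control arrays and no furan array. The opposite, well above background on all furan arrays and no control array, held for 105 (0.590%). At the tested probe of each of the 8 genes every furan level lay below every control level, which held for 17.9% of all features. Because the genes were chosen on this contrast, nothing is read from these shares.

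**Figure D1:**
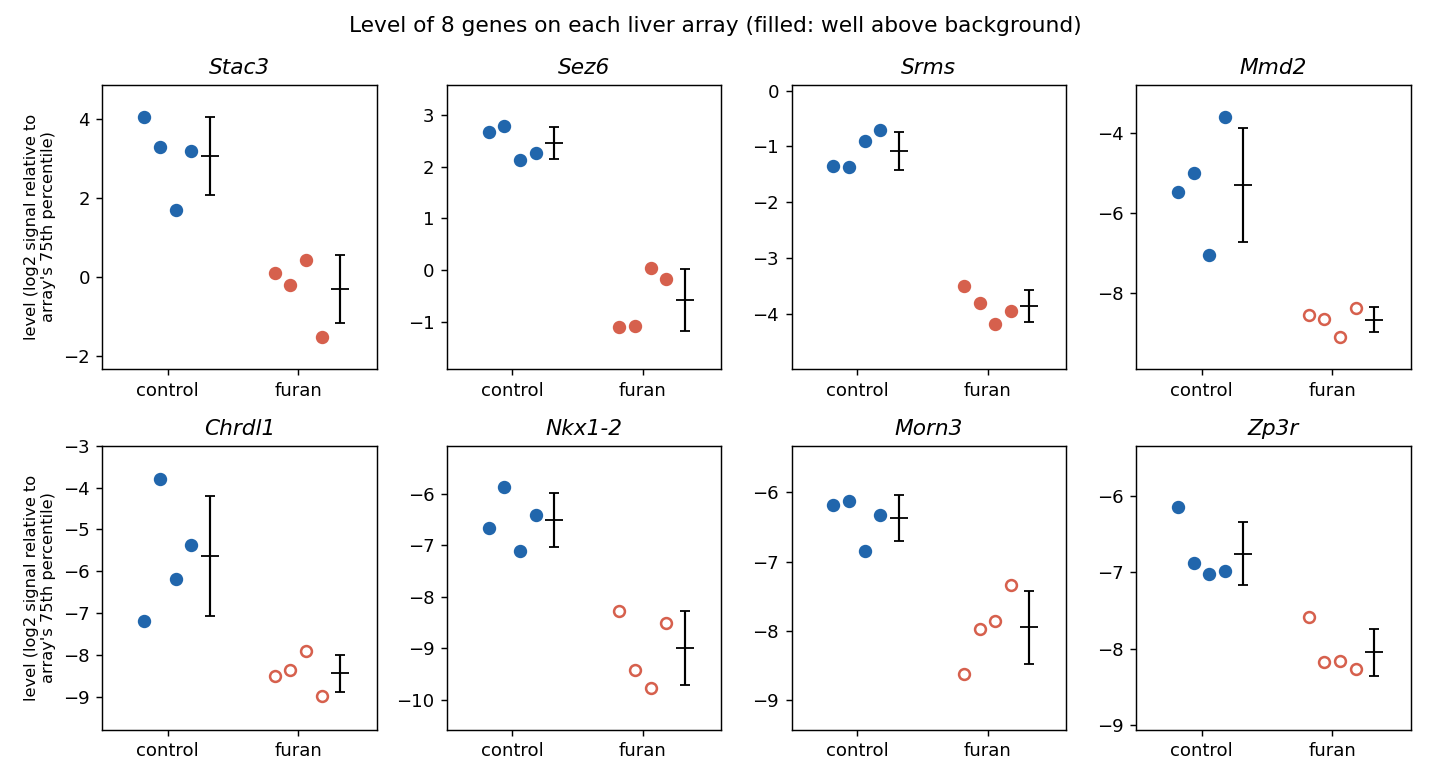
Level of each of the 8 genes on every array, on the y axis as log2 signal relative to the 75th percentile of the array, with control arrays in blue and furan arrays in red, replicates 1 to 4 from left to right, and the black mark showing the mean with its SD (n = 4). Filled points were well above background and open points were not; each panel has its own y range, and in every panel all furan points lie below all control points.

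Stac3 encodes an adaptor protein with an SH3 domain that binds the voltage-gated calcium channel of skeletal muscle and is needed to couple excitation to contraction. Its single spot carries a 60-base probe that the array annotation places on the plus strand at chr7:67485292-67485515 of the rn4 build, a span of 224 bases, so its 60 bases are not contiguous on the chromosome. Exon or UTR annotation on rn4 was not used here. The probe is shown because the whole Stac3 result rests on this one sequence.
Stac3 probe: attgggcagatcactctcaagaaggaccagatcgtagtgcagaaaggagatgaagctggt

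The Stac3 level was 4.07, 3.30, 1.71 and 3.19 in control rats 1 to 4 and 0.11, -0.20, 0.42 and -1.52 in furan rats 1 to 4. Control 3 was the lowest control and furan 4 the lowest furan array, and the groups did not overlap, with a gap of 1.28 between the lowest control and the highest furan level. The means were 3.07 ± 0.99 (SD, n = 4) and -0.30 ± 0.85 (SD, n = 4), a difference of -3.36 on the log2 scale, or 10.3-fold. Within slide 1 the difference was -3.73 and within slide 2 it was -2.999.

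Of 11 tested genes of the STAC family and of calcium release, 4 were lower and 1 was higher after furan by limma, with a median change of -0.25 against -0.03 over all features. Cacna1s, the pore subunit of the channel that Stac3 binds, had control levels of -3.89, -3.48, -4.61 and -4.54 and furan levels of -6.62, -6.70, -6.18 and -6.05. Its groups did not overlap, and its difference was -2.26 (SE 0.28, limma adjusted p = 0.0012), or -1.15 with normexp. Itpr2, an inositol trisphosphate receptor that releases calcium from the endoplasmic reticulum, changed by -0.91 (SE 0.17, limma adjusted p = 0.0050). Atp2a2, the pump that returns calcium to that store, changed by -0.57 (SE 0.11, limma adjusted p = 0.0058). The other lower gene was Itpr1, at -0.46, whose call ended under 7 of 20 alternatives that kept both slides, among them leaving out control 2, control 3 or furan 2 (-0.47 to -0.39). Ryr1, the calcium release channel of skeletal muscle, changed by 0.64 (SE 0.13, limma adjusted p = 0.0080), a direction that turned with normexp, to -0.03.

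Skeletal muscle markers were set beside Stac3 because the gene is best known from that tissue. Of 9 such markers with a probe, 4 were well above background on all 8 arrays, and Myh1, Myh4 and Tnnt3, which define fast muscle fibres, were so on no array. Their summed signal, in multiples of the 75th percentile of the array, was 0.388 to 0.543 on control arrays and 0.299 to 0.476 on furan arrays, and the ranges overlapped. Of the 5 that were tested, 3 were lower by limma, Ckm by a change of -0.82, Myoz1 of -0.80 and Tnni2 of -0.74, and their part in the Stac3 result was not tested.

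Sez6 encodes a membrane protein of neurons with CUB and sushi domains that shapes dendrites and synapses and is shed from the cell surface by the protease Bace1. It has a pair of probes on the plus strand of rn4, at chr10:64020948-64021007 and chr10:64019775-64019834, whose starts lie 1173 bases apart. The brighter probe, printed at 2 spots, read 2.67, 2.78, 2.12 and 2.27 in control rats 1 to 4 and -1.11, -1.08, 0.05 and -0.17 in furan rats 1 to 4. The control arrays lay close together, and the furan arrays split by slide, with both arrays of slide 1 lower than both of slide 2. The means were 2.46 ± 0.32 (SD, n = 4) and -0.57 ± 0.60 (SD, n = 4), a difference of -3.03 or 8.19-fold. The difference was -3.82 within slide 1 and -2.25 within slide 2.

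The other Sez6 probe gave a difference of -2.89, or 7.39-fold, from its single spot. On each array the level of the first probe minus that of the second was between 3.08 and 3.50, so both probes followed the same course over the 8 arrays. Its sequence is shown because it is a separate measurement of the gene, at another place in it.
Sez6 second probe: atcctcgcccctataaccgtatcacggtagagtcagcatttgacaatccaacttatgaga

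Of 9 tested genes of the SEZ6 family, the BACE proteases and other CUB and sushi proteins, 3 were lower and 3 higher by limma, with a median change of -0.13. Bace1 had control levels of -5.94, -6.60, -6.26 and -6.35 and furan levels of -7.61, -9.06, -7.64 and -8.38, and it was well above background on 2 of the 4 furan arrays. Its difference was -1.89 (SE 0.33, limma adjusted p = 0.0039), or -0.70 with normexp. Sez6l2, the close relative of Sez6, changed by -0.63, a call that ended under 1 of 20 alternatives, and Susd5 changed by -0.77. Susd2, a sushi domain protein of the cell surface, was higher by 1.94 (SE 0.24, limma adjusted p = 0.0013), or by 0.45 with normexp. Susd1 was higher by 0.74, or by 0.31 with normexp, and the call of Csmd1 at 1.22 ended under 12 of 19 alternatives that kept both slides and turned direction with normexp, to -0.13. Leaving out control 2, control 4, furan 2, furan 3 or furan 4 was enough to end it (0.96 to 1.31). Of 9 neuron markers with a probe, 1 was well above background on all 8 arrays and the synaptic vesicle gene Syt1 on none, with summed signals of 0.0429 to 0.133 on control arrays and 0.0441 to 0.119 on furan arrays.

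Srms encodes a cytoplasmic tyrosine kinase of the Src type that lacks the regulatory tail of Src, and with Ptk6 and Frk it forms a small group of epithelial kinases. Its probe, at chr3:170347943-170348002 on the minus strand of rn4, is printed at 2 spots. The level was -1.36, -1.37, -0.91 and -0.70 in the 4 control rats and -3.49, -3.80, -4.19 and -3.95 in the 4 furan rats. Both groups were tight and lay 2.12 apart at their nearest points. The means were -1.09 ± 0.33 (SD, n = 4) and -3.86 ± 0.29 (SD, n = 4), a difference of -2.77 or 6.84-fold. Here slide 2 had the larger difference, -3.27 against -2.28 on slide 1, the reverse of Sez6.

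Of 14 tested Src-type kinases and regulators, 3 were lower after furan by limma, or 5 with normexp, and the median change was -0.22. Ptk6, the nearest kinase relative of Srms and also its neighbour on the chromosome, read -5.19, -3.33, -4.84 and -4.14 on control arrays and -6.35, -7.09, -6.84 and -6.97 on furan arrays. The groups did not overlap and the difference was -2.44 (SE 0.38, limma adjusted p = 0.0028), or -1.19 with normexp. Frk, the other kinase of the group, changed by -0.50 (SE 0.094, limma adjusted p = 0.0054). The third was Fgr, a kinase of myeloid cells, at -0.70, whose call ended under 10 of 20 alternatives, among them leaving out any array but control 3 and furan 1 (-0.73 to -0.54). The other 11 kinases and regulators, among them Src and Yes1, did not pass the test.

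The remaining 5 genes were dim also in control liver. Their processed signals ran from a few units to 80.3 on control arrays, averaged over the spots of a probe, where the local background around those spots read 16 to 19 units. Without any scaling the log2 difference of each of the 8 genes was smaller by 0.59, since the 75th percentile by which each array was divided was higher on the furan arrays. It was then -2.77 for Stac3, -2.44 for Sez6 and -2.18 for Srms. Among the dim genes the unscaled groups, averaged over the spots of a probe, overlapped for Chrdl1 and not for the other 4. For Zp3r they nearly met, with a lowest control of 7.75 units and a highest furan array of 7.69. At the first spot of Mmd2 alone, control 3 read 7.69 units and furan 1 read 8.30. The array held 1750 features that were well above background on all control arrays with a control mean in the same range, -6.76 to -5.29. Of these, 1491 were well above background on all furan arrays and 7 on none, 9.89% were called lower and 11.3% higher by limma, and the median change was -0.14. The 5 dim genes set this range and are counted in it, also among the 7. For these 5 genes a fold at the floor is given, using for each furan array the higher of the gene's own level and the dimmest level that array still called well above background. It is not a lower limit under other processing. Without scaling the measured folds were below it, at 6.80 for Mmd2, 4.62 for Chrdl1, 3.69 for Nkx1-2, 1.98 for Morn3 and 1.62 for Zp3r.

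**Figure D2:**
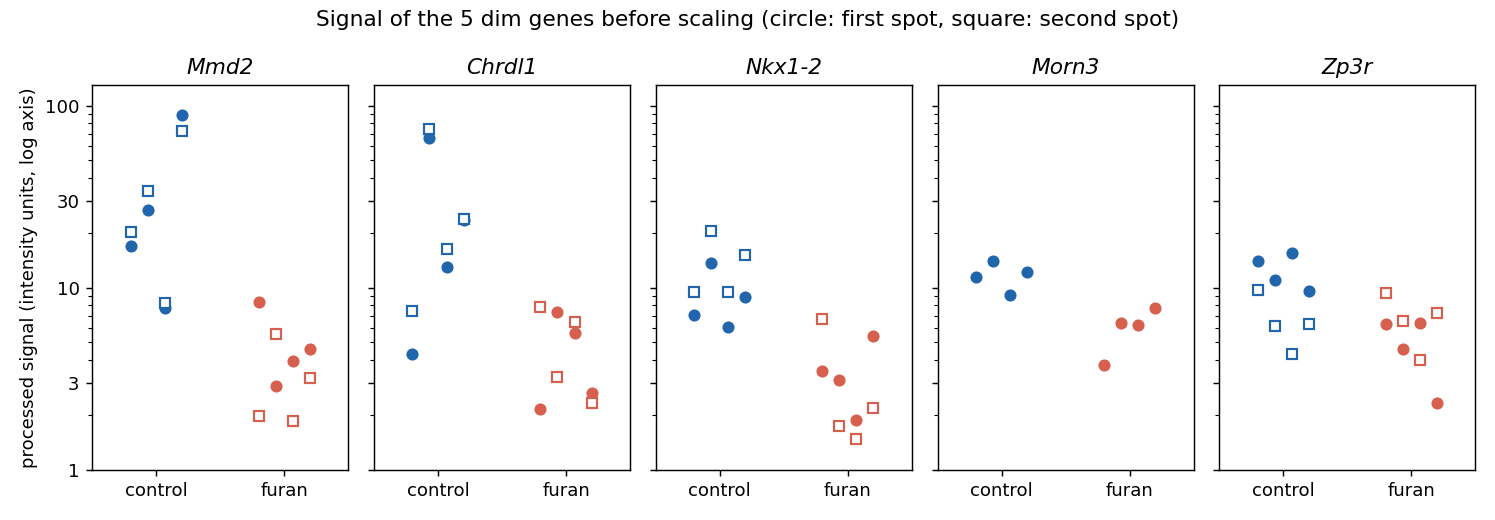
Processed signal of the 5 dim genes before any scaling, in intensity units on a log axis, for every spot of the main probe (filled circle: first spot, open square: second spot; Morn3 has 1 spot), with control arrays in blue and furan arrays in red, replicates 1 to 4 from left to right. Control signals reached 80.3 units for Mmd2 and 70.2 for Chrdl1 as the mean over the spots. Both spots of Chrdl1, the first spot of Mmd2 and the second spot of Zp3r gave overlapping signals in control and furan.

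Mmd2 encodes a membrane protein of the PAQR family, to which the adiponectin receptors also belong, and its product sits in the Golgi. The probe, at chr12:12406041-12406100 on the plus strand of rn4, gave levels of -5.48, -5.01, -7.05 and -3.61 on control arrays. After furan the levels were -8.53, -8.63, -9.08 and -8.36, none of them well above background. The control livers spread over a 10.9-fold range, with control 4 highest and control 3 lowest, while the furan arrays lay together as averages over the spots. The measured means were -5.29 ± 1.42 (SD, n = 4) and -8.65 ± 0.31 (SD, n = 4), a difference of -3.36, and the fold at the floor was 9.27. Without control 3 the difference was -3.95 and without control 4 it was -2.80, and with normexp it was -1.11. Before scaling, the signals averaged over the spots were 18.5, 30.2, 7.96 and 80.3 units in controls and 2.70 to 4.03 units after furan. Single spots ran from 1.85 to 8.30 units after furan, and on furan 1 the first spot read 8.30 and the second 1.96.

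Of 9 tested PAQR genes, 3 were lower after furan by limma, and the median change was -0.09. With normexp 5 were lower and the median was -0.42. Paqr9, which is abundant in liver, changed by -1.10 (SE 0.14, limma adjusted p = 0.0016). Adipor2, the adiponectin receptor of liver, read 2.48, 2.36, 2.45 and 2.30 on control arrays and 1.81, 1.64, 1.82 and 1.82 on furan arrays. Its groups were tight and apart, with a difference of -0.63 (SE 0.096, limma adjusted p = 0.0026). Paqr7, a membrane progesterone receptor, changed by -0.73, a call that ended under 7 of 20 alternatives, among them leaving out replicate 1 or 2 of either group (-0.68 to -0.61).

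Chrdl1 encodes chordin-like 1, a secreted protein that binds bone morphogenetic proteins (BMPs) and keeps them from their receptors. BMPs bind receptor kinases that activate SMAD proteins, and in hepatocytes this route drives hepcidin, the hormone of iron balance, along with Id and Msx genes. The probe, at chrX:35246272-35246331 on the plus strand of rn4, read -7.19, -3.80, -6.19 and -5.38 on control arrays and -8.49, -8.36, -7.91 and -8.99 on furan arrays. Control 2 stood highest and control 1 lowest, a 10.5-fold range, and control 1 lay only 0.72 above the highest furan array. The measured means were -5.64 ± 1.43 (SD, n = 4) and -8.44 ± 0.44 (SD, n = 4), a difference of -2.80, and the fold at the floor was 5.94. Without control 2 the difference was -2.19, and with normexp it was -1.004. Before scaling, control 1 gave 5.68 units, less than the 6.05 units of furan 3, so the signals themselves overlapped.

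Control 2, where Chrdl1 was highest, was also the control array with the highest summed markers of 5 other cell types (biliary, stellate, endothelial, lymphocyte and neuron). Biliary markers summed to 5.61 on control 2 and to 0.756, 1.17 and 0.835 on controls 1, 3 and 4, against 1.51 to 9.84 on the furan arrays. Markers of stellate cells and matrix summed to 13.7 on control 2 and to 4.62, 10.2 and 6.61 on the other controls, against 6.29 to 25.7 on the furan arrays. Furan 1 had the highest sum of all 8 arrays for both lists, and Chrdl1 was not above background there. The part of these cell types in the control spread of Chrdl1 was not tested. Endothelial markers summed to 5.90 to 22.5 on control and 11.6 to 14.6 on furan arrays, macrophage markers to 29.7 to 47.9 and 31.3 to 34.7, and lymphocyte markers to 0.217 to 0.489 and 0.287 to 0.697, so all 3 ranges overlapped. Of the biliary markers 3 of 10 tested were higher by limma, and of the stellate, endothelial, macrophage and lymphocyte markers none was called.

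The other antagonists, the ligands and the receptors of the BMP route are given next. Of 11 tested BMP antagonists, 1 was lower and 2 were higher by limma, with a median change of 0.27 that turned to -0.28 with normexp, where 3 were lower. Fstl3, which binds activins and related ligands, read -5.37, -4.07, -5.17 and -5.53 on control arrays and -2.30, -2.67, -3.74 and -3.74 on furan arrays. It was thus higher by 1.92 (SE 0.43, limma adjusted p = 0.010), or by 0.84 with normexp. Bambi, a decoy receptor, was higher by 1.31 (SE 0.28, limma adjusted p = 0.0083), and the inhibitory Smad7 at -0.70 lost its call under 9 of 20 alternatives, among them leaving out any array but control 4 and furan 1 (-0.71 to -0.59). Of 19 ligands, receptors and signal carriers, 3 were lower, with a median change of -0.21, and with normexp 10 were lower, with a median of -0.36. The type 2 receptor Acvr2b changed by -0.65 (SE 0.11, limma adjusted p = 0.0042). The ligand Bmp7 changed by -0.54, a call that ended without control 2 or control 4 (-0.54 to -0.46), and the receptor Acvrl1 by -0.66, a call that ended without any one array but control 1 and furan 1 (-0.69 to -0.48).

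Of 9 tested target genes of the pathway, 5 were lower by limma, with a median change of -0.93, and the count was 5 or 6 under the other background correction and both other scalings. Id4, a dominant negative helix-loop-helix protein, read 0.69, 0.49, 0.56 and 0.75 in controls and -1.62, -1.38, -0.99 and -1.05 after furan, a difference of -1.88 (SE 0.16, limma adjusted p = 3.2e-04). Hamp, which encodes hepcidin, changed by -1.42 (SE 0.24, limma adjusted p = 0.0034) from control levels of 6.23 to 7.12. Msx1, a homeobox gene, changed by -1.98 (SE 0.38, limma adjusted p = 0.0058), or by -0.81 with normexp, and was well above background on 2 of the 4 furan arrays. Msx2 at -1.15, or -0.75 with normexp, and Atoh8 at -0.93 were the other lower ones. Id1 at 0.17, Id2 at -0.46, Id3 at -0.12 and Gata2 at -0.38 were not called. A lower antagonist and 5 lower targets of 9 were thus measured in the same livers, and how they relate was not tested.

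Nkx1-2 encodes a homeodomain transcription factor of the NK family, known from the caudal progenitor cells of the embryo and the developing nervous system. The probe, at chr1:192068436-192068495 on the minus strand of rn4, is printed at 2 spots, and its sequence is shown because it lies in the homeobox, the stretch that NK genes share most closely.
Nkx1-2 probe: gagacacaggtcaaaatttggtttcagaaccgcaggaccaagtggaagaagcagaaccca

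The Nkx1-2 level was -6.66, -5.87, -7.12 and -6.41 on control arrays and -8.27, -9.42, -9.78 and -8.51 on furan arrays. On control 2 both spots were well above background, and on controls 1, 3 and 4 the second spot alone was. The groups did not overlap, and the measured means were -6.52 ± 0.52 (SD, n = 4) and -8.99 ± 0.72 (SD, n = 4), a difference of -2.48. The fold at the floor was 4.17, and the difference shrank to -0.74 with normexp. Before scaling, the signals were 7.59 to 16.7 units in controls and 1.66 to 4.82 after furan.

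Of 10 tested NK-like homeobox genes, 3 were lower after furan by limma, and the median change was -0.50. The count of lower genes was 8 with normexp and 1 with quantile normalization. Hhex, a homeobox gene of the hepatocyte lineage, read 4.51, 3.73, 3.75 and 3.90 on control arrays and 2.62, 2.91, 2.88 and 3.05 on furan arrays. Its groups did not overlap, with a difference of -1.11 (SE 0.19, limma adjusted p = 0.0040). Nkx2-6 at -0.66 lost its call under 8 of 20 alternatives, among them leaving out control 1, control 3, furan 1 or furan 2 (-0.61 to -0.55). Nkx2-1 at -0.42 lost it under 10 of 20, among them leaving out control 1, control 2, control 4 or furan 2 (-0.43 to -0.35).

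Morn3 encodes a protein built of MORN repeats that is known from the testis, where it works with Meig1 in making the sperm tail. Its single spot carries a probe that the array annotation ties to a predicted transcript and to no rn4 position. The level was -6.18, -6.13, -6.85 and -6.32 on control arrays and -8.62, -7.97, -7.86 and -7.34 on furan arrays. Control 3 and furan 4 came nearest to each other, 0.49 apart, and the groups did not overlap. The measured means were -6.37 ± 0.33 (SD, n = 4) and -7.95 ± 0.53 (SD, n = 4), a difference of -1.58, and the fold at the floor was 2.89. The difference was -2.15 within slide 1 and -1.01 within slide 2, and -0.68 with normexp. Before scaling the signals were 9.14 to 13.9 units in controls and 3.76 to 7.75 after furan.

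The called relatives of Morn3 were higher. Of 7 tested MORN repeat genes and partners, 5 were higher by limma, with a median change of 1.32 that shrank to 0.12 with normexp, where 3 were called higher. Morn5 read -4.77, -5.52, -5.59 and -4.99 in controls and -3.02, -2.92, -3.32 and -3.06 after furan, a difference of 2.14 (SE 0.20, limma adjusted p = 4.7e-04), or 0.94 with normexp. Setd7, a lysine methyltransferase that carries MORN repeats, was higher by 1.80 (SE 0.25, limma adjusted p = 0.0019), but by 0.12 with normexp, where it was not called. Morn4 at 1.88 lost its call under 14 of 19 alternatives, among them leaving out any array but control 2 (1.27 to 2.15). Morn1 was higher by 1.32, or by 0.63 with normexp, and Morn2 was higher by 0.43, a call that ended under 1 of 20 alternatives.

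Zp3r encodes a protein of the sperm acrosome that was described as a receptor for the zona protein Zp3, and it is built of the same sushi repeats as the C4b-binding proteins made by liver. Its brighter probe, at chr13:43497122-43497181 on the minus strand of rn4, read -6.14, -6.89, -7.02 and -6.99 on control arrays and -7.59, -8.18, -8.17 and -8.26 on furan arrays. Replicate 1 was the highest array in both groups, and the lowest control lay 0.57 above the highest furan array. The measured means were -6.76 ± 0.41 (SD, n = 4) and -8.05 ± 0.31 (SD, n = 4), a difference of -1.29, and the fold at the floor for this probe was 2.39. With normexp the difference was -0.64.

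The spots of Zp3r disagreed. The first of its 2 spots was well above background on all controls, with 9.53 to 15.4 units against 2.31 to 6.40 after furan, and the second on control 1 only, with 4.30 to 9.76 units against 4.02 to 9.37 after furan. The second probe of the gene was well above background on no control array and on 1 furan array, furan 4, and its difference was -0.08. The groups were thus apart at 1 of the 3 spots of Zp3r.

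Of 5 tested regulators of complement activation, the family of Zp3r, 3 were lower and 1 was higher by limma, with a median change of -0.49. C4bpb, a chain of the C4b-binding protein, read 6.73, 5.56, 6.14 and 6.67 in controls and 5.33, 5.02, 5.31 and 5.38 after furan, a difference of -1.01 (SE 0.25, limma adjusted p = 0.017). Its call ended without furan 2, where the difference was -0.93. The other chain, C4bpa, changed by -0.85 (SE 0.17, limma adjusted p = 0.0072) and the coagulation subunit F13b by -0.49, a call that ended without control 4 (-0.44). Cd46, a membrane regulator, was higher by 0.99 (SE 0.10, limma adjusted p = 6.5e-04), a direction that turned to -0.10 with normexp. Hepatocyte markers, which these plasma proteins accompany, summed to 1946 to 2380 on control arrays and 1332 to 1623 on furan arrays, and 7 of the 10 were lower and 1 higher by limma. The part of that shift in the complement genes was not tested.

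Of 6 tested zona and acrosome genes, 2 were lower and 2 higher by limma. Zan, which encodes a sperm protein that binds the zona, read -3.91, -4.74, -4.16 and -2.81 on control arrays and -6.26, -6.95, -6.83 and -7.51 on furan arrays. Its groups did not overlap, and its difference was -2.98 (SE 0.41, limma adjusted p = 0.0018), or -1.33 with normexp. The acrosomal protease Acr changed by -0.92. Zp3 was higher by 1.05, or by 0.17 with normexp, and its call ended under 6 of 20 alternatives, among them leaving out control 2, control 3 or control 4 (0.99 to 1.04). Zpbp2 was higher by 0.40, a call that ended without control 3 (0.37). Of 10 male germ cell markers 1, Prm1, was well above background on all 8 arrays and Prm2 on 7, and Tnp2, Odf1 and Akap4 were so on no array. Prm2 read -3.86, -4.85, -2.86 and -3.29 on control arrays and -7.28, -4.38, -3.93 and -3.60 on furan arrays. The markers summed to 0.0846 to 0.168 on control arrays and 0.0666 to 0.129 on furan arrays, and neither of the 2 tested was called.

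Over all 11 lists, 110 relatives and pathway partners were tested, and 30 of them (27.3%) were lower and 14 (12.7%) higher by limma, against the 16.8% and 17.3% of all features given above. Their median change was -0.18. With normexp 53 were lower and 8 higher, and with the 75th percentile of probes above background on all 8 arrays 26 were lower and 13 higher. The lists were drawn up with results of these arrays known, so the shares describe them and are not evidence about the 8 genes.

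**Figure D3:**
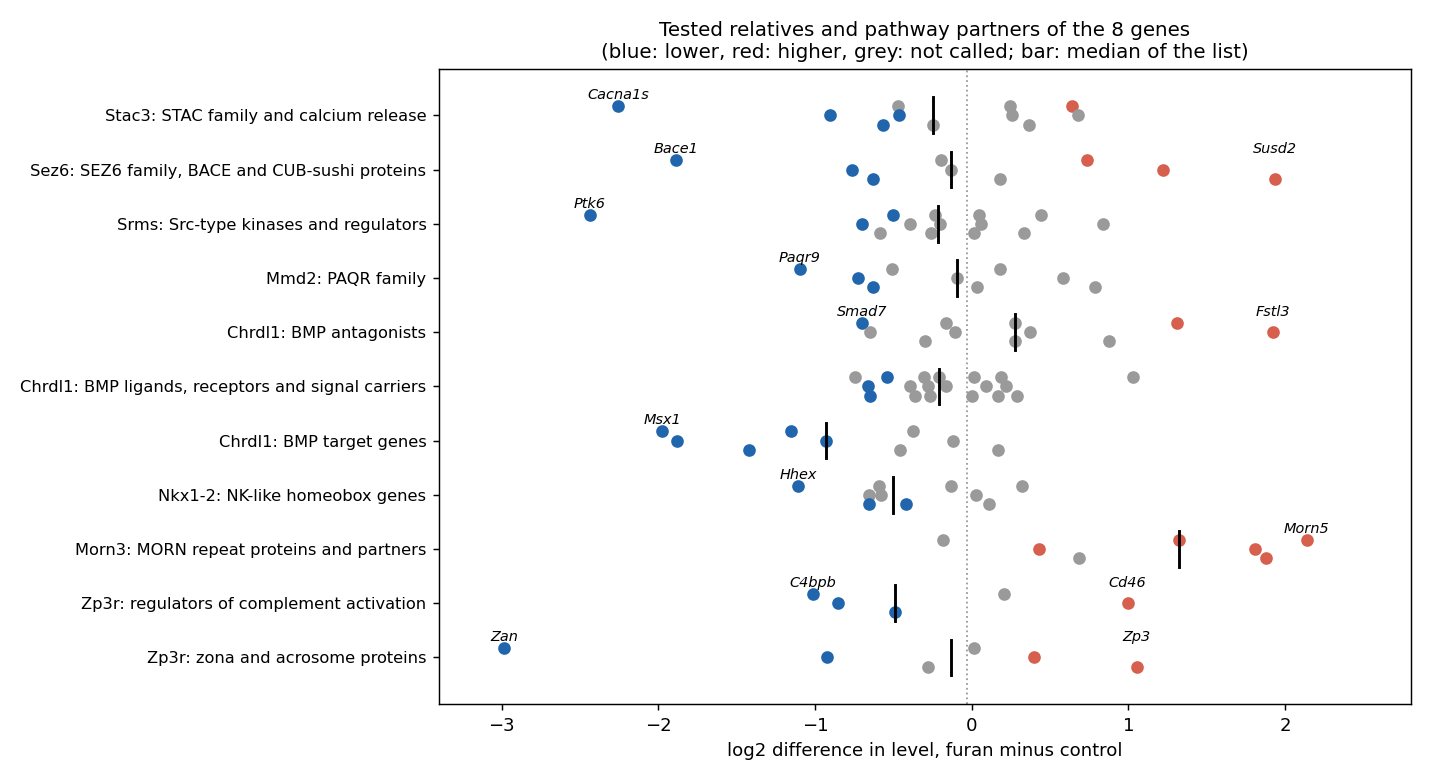
Log2 difference in level, furan minus control, of each tested gene in the 11 lists of relatives and pathway partners, with blue for genes called lower, red for genes called higher and grey for the rest by limma, a black bar at the median of each list and a dotted line at the median of all features (-0.03). Called genes at the ends of a list are named; BMP targets lie mostly on the lower side and MORN genes mostly on the higher side, the latter with a median that shrinks to 0.12 with normexp.

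The genomic neighbours of the 8 genes were compared next, as the 3 nearest protein-coding genes on each side in the RefSeq order of the GRCr8 assembly. Of 48 such neighbours 36 were tested, and 12 (33.3%) were lower and 4 (11.1%) higher by limma, against 16.8% and 17.3% of all features. Their median change was -0.27. With normexp 17 were lower and 3 higher, and with quantile normalization 10 were lower and 4 higher. Ptk6, C4bpa and C4bpb are counted among the relatives too. Whether position on the chromosome played a part was not tested. In 6 cases a neighbour was lower by at least 1 log2 unit. Ptk6, directly beside Srms, is given above, and Helz2, a coactivator of nuclear receptors lying 2 genes from Srms on the other side, changed by -1.36 (SE 0.28, limma adjusted p = 0.0075).

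Slc29a4, a transporter of monoamines lying 2 genes from Mmd2, read -0.03, -0.50, -0.36 and -0.07 in controls and -3.06, -3.23, -2.32 and -1.93 after furan. The difference was -2.40 (SE 0.29, limma adjusted p = 0.0011), or -1.44 when its probes were averaged, while Wipi2, between Slc29a4 and Mmd2, changed by 0.01 and was not called. Oat, the ornithine aminotransferase of pericentral hepatocytes that lies directly beside Nkx1-2, read 4.09, 3.94, 3.28 and 4.41 in controls and 2.08, 1.90, 1.89 and 1.33 after furan. Its difference was -2.13 (SE 0.26, limma adjusted p = 0.0011), and on the other side of Nkx1-2 Lhpp changed by -0.17 and was not called. Beyond Lhpp, Fam53b was higher by 0.88 (SE 0.096, limma adjusted p = 7.8e-04), or by 0.86 with normexp. Eef1akmt2, on that same side, was higher by 0.60 (SE 0.11, limma adjusted p = 0.0051), or by 0.41 with normexp. Inhbc, an activin subunit made by hepatocytes lying 2 genes from Stac3, changed by -1.61 (SE 0.19, limma adjusted p = 0.0011). C4bpb, the remaining neighbour lower by at least 1 unit, lies with C4bpa on 1 side of Zp3r, and both are given above. Tmem120b, beside Morn3, was higher by 1.18 (SE 0.29, limma adjusted p = 0.016), a direction that turned to -0.07 with normexp. Shmt2, 2 genes from Stac3, was higher by 0.45, a call that ended under 5 of 20 alternatives. R3hdm2 beside Stac3 changed by -0.59 and Orai1 beside Morn3 by -0.44, calls that ended under 9 and 2 of 20 alternatives.

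Around the other genes the neighbours moved less. Next to Sez6, Pipox changed by -0.16 and was not called, and on the far side Dhrs13 changed by -0.58 and was called lower. Phf12 at -0.44 and Flot2 at -0.34 lost their calls under 9 and 8 of 20 alternatives, control 1, control 3, control 4 and furan 2 being arrays whose removal ended either call (-0.44 to -0.38 for Phf12 and -0.34 to -0.30 for Flot2). Of the neighbours of Chrdl1, 2 were tested and neither was called by limma. In none of the 8 regions was every tested neighbour called lower.

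**Figure D4:**
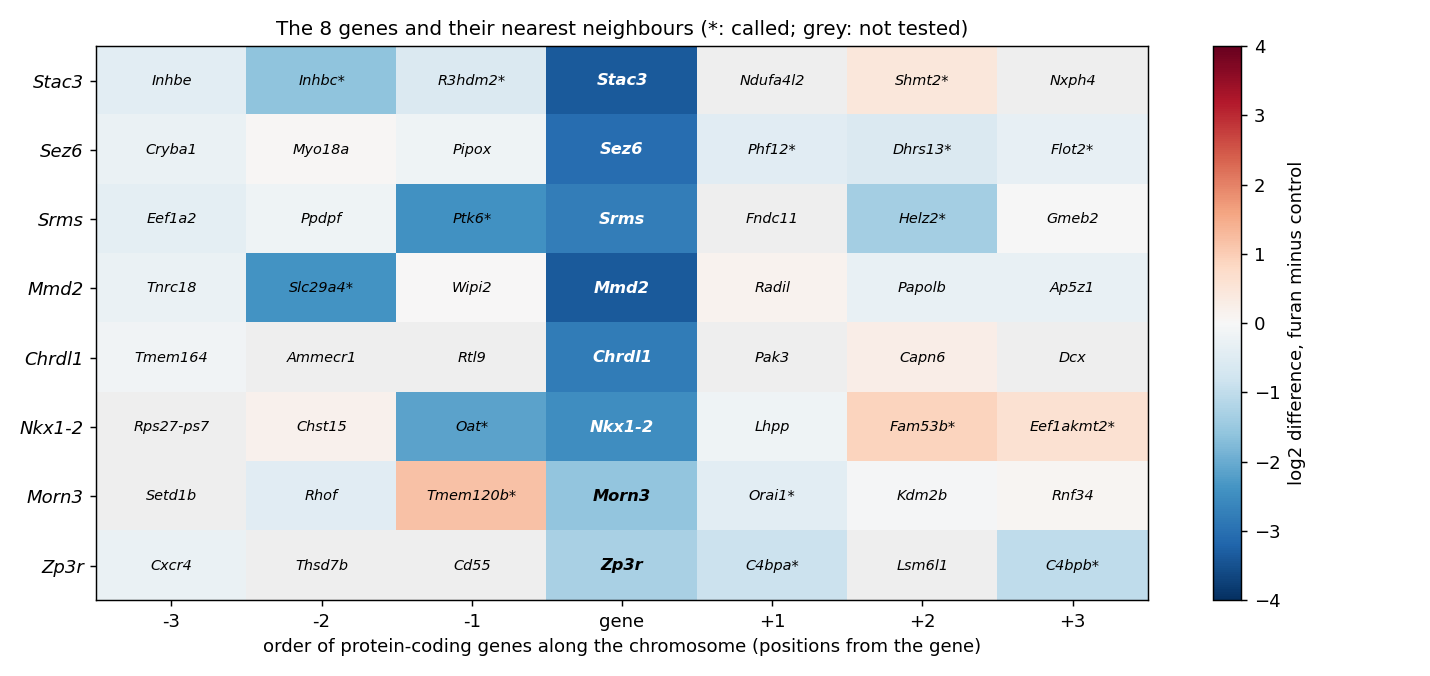
The 8 genes (centre column) and the 3 nearest protein-coding genes on each side, in chromosome order on GRCr8, coloured by the log2 difference in level, furan minus control (colour bar). An asterisk marks neighbours called by limma and light grey those not tested; Ptk6, Slc29a4, Inhbc, Helz2 and Oat are the neighbours lower by at least 1 unit beside the C4b-binding protein gene C4bpb.

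The features whose 8 levels lay nearest to each gene, after centring each profile on its own mean, were found by the root mean square difference over the 8 arrays. Sez6 had the closest company among the 3 measurable genes: Sult1c3, a sulfotransferase, at 0.30, Plekhb1 at 0.36 and the receptor Notch1 at 0.38. Sult1c3 read 5.98, 5.74, 5.46 and 5.82 in controls and 2.72, 2.90, 3.63 and 3.43 after furan, and so shared with Sez6 the lower values on furan arrays 1 and 2. Stac3 had no profile nearer than C1qtnf3 at 0.77, Cxcl1 at 0.79 and Fgl1 at 0.80, and Srms lay near Ncam2 at 0.39, Zan at 0.45 and Cldn2 at 0.46.

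Among the dim genes, Chrdl1 lay nearest to Ptk6 at 0.54, then to the growth factor Igf2 at 0.74 and to Tenm2 at 0.76. Ptk6, Igf2 and Tenm2 were all highest on control 2 and lowest among controls on control 1, like Chrdl1. Mmd2 lay nearest to Rgs16 at 0.64, Fam179a at 0.71 and Zan at 0.83, and all 3 were highest on control 4. Nkx1-2 lay near Ptk6 at 0.46, Slc25a2 at 0.48 and Il25 at 0.49. Morn3 lay near Cyp3a73 and Abcc8 at 0.21 and Or9s13 at 0.24, and Zp3r near H1f0, Fut11 and Lbp, each at 0.18. Between members, the nearest pair was Morn3 and Zp3r at 0.57, followed by Srms and Nkx1-2 at 0.58. A small distance means a similar size of change as well as a similar order of arrays, and these distances carry no test.

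Among all features, 62 (0.349%) had a mean level at least 2 log2 units lower after furan, and 55 of those had a gene name. The list holds Stac3, Mmd2, Sez6, Chrdl1, Srms and Nkx1-2, and not Morn3 or Zp3r. The members were chosen by this same fall, and with normexp Mmd2, Chrdl1 and Nkx1-2 fell by less than that limit. Just inside that limit lay Apon at -2.02 and Spmip11 at -2.01. Besides the 5 dim genes, 2 more were well above background on all controls and no furan array. Slc25a2, a mitochondrial ornithine carrier, read -6.44, -5.64, -6.79 and -6.70 in controls and -9.02, -8.83, -9.74 and -9.30 after furan, with a fold at the floor of 4.46. Nanog, known from pluripotent cells, read -6.59, -5.24, -7.23 and -6.77 in controls and -8.01, -8.52, -7.75 and -7.34 after furan. Its fold at the floor was 2.72, with furan 4 close below control 3.

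The promoters of 7 of the 8 genes, from 250 bases before to 50 after the transcription start, were read from RefSeq on GRCr8. For each gene 1 start was taken, although 9 were listed for Morn3. The Stac3 window lies inside the gene, which begins at chr7:65227151. The members differed in CpG content, with 2 CpG in Zp3r, 3 in Stac3, 8 in Srms, 13 in Chrdl1, 17 in Nkx1-2, 20 in Mmd2 and 27 in Morn3, against a median of 7 over 27457 promoters. Both strands were searched for 11 short motifs. The core of the xenobiotic response element, GCGTG, stood in 4 of the 7 windows (Mmd2, Chrdl1, Nkx1-2 and Morn3) and in 31.1% of all promoters. A FOXA core, TGTTTNC, stood in Stac3 alone among the 7 and in 20.9% of all promoters, and the nuclear receptor core, AGGTCA, in Stac3 and Srms and in 15.7%. Srms also held an ONECUT core, ATCAAT (7.87% of all promoters), and Nkx1-2 an E-box, CACGTG (6.64%).

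The other 6 motifs were found in no window of the 7: the STAT palindrome TTCNNNGAA (8.64% of all promoters), the antioxidant element core TGACNNNGC (12.2%), GGCGCC of BMP SMADs (11.8%), TTGCNNCAA of C/EBP (2.12%), GTTAATNAT of HNF1 (0.761%) and CAAAGTCCA of HNF4 (0.382%). The antioxidant core shares the letters TGAC with the nuclear receptor core read on the opposite strand. A match is a description of these letters, and no array value bears on binding there. The windows below are those of a gene with few CpG and liver factor motifs (Stac3), of the one with a pair of nuclear receptor cores (Srms), and of the 2 with most matches among the CpG-rich ones (Nkx1-2 and Morn3), with every motif match in capitals. They lie at chr7:65228225-65228524 (plus strand), chr3:188702425-188702724 (minus), chr1:196821322-196821621 (minus) and chr12:39166213-39166512 (plus) of GRCr8.
Stac3 promoter: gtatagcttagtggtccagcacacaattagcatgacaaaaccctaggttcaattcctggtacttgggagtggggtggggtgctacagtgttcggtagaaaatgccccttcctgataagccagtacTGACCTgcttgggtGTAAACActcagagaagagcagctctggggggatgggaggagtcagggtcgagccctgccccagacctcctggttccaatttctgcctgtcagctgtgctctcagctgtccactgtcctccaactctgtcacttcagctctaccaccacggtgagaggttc
Srms promoter: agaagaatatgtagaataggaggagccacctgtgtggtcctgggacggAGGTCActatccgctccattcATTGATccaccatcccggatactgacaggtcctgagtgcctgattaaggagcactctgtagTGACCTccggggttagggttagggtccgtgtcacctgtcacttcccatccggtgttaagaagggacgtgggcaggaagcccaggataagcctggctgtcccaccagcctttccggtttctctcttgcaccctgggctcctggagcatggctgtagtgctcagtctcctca
Nkx1-2 promoter: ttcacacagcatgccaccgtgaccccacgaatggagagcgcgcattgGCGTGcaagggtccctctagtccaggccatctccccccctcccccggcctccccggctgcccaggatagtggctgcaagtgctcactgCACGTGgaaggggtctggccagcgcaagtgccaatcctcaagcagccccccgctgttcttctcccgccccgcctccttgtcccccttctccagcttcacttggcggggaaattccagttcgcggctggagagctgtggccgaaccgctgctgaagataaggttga
Morn3 promoter: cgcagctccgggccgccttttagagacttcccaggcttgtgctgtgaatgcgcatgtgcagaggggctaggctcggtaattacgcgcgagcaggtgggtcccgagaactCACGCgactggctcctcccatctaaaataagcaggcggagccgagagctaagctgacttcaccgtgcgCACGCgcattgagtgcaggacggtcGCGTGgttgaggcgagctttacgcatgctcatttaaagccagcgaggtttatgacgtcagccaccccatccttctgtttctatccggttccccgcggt

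The measured falls kept their direction under each of 17 processing alternatives for each of the 8 genes. Using the authors' series table or keeping flagged spots could not change these values. That table holds the same signal rescaled, and no member spot was flagged. For Stac3 the difference ran from -3.82 to -2.77, for Sez6 from -3.82 to -2.25 and for Srms from -3.27 to -2.18. The 5 dim genes moved further, from -3.95 to -1.11 for Mmd2, from -3.32 to -1.004 for Chrdl1, from -2.72 to -0.74 for Nkx1-2, from -2.15 to -0.68 for Morn3 and from -1.49 to -0.64 for Zp3r. In each of these 5 the smallest value came with normexp. Because the genes were chosen for their falls, a kept direction is no separate support for them.

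**Figure D5:**
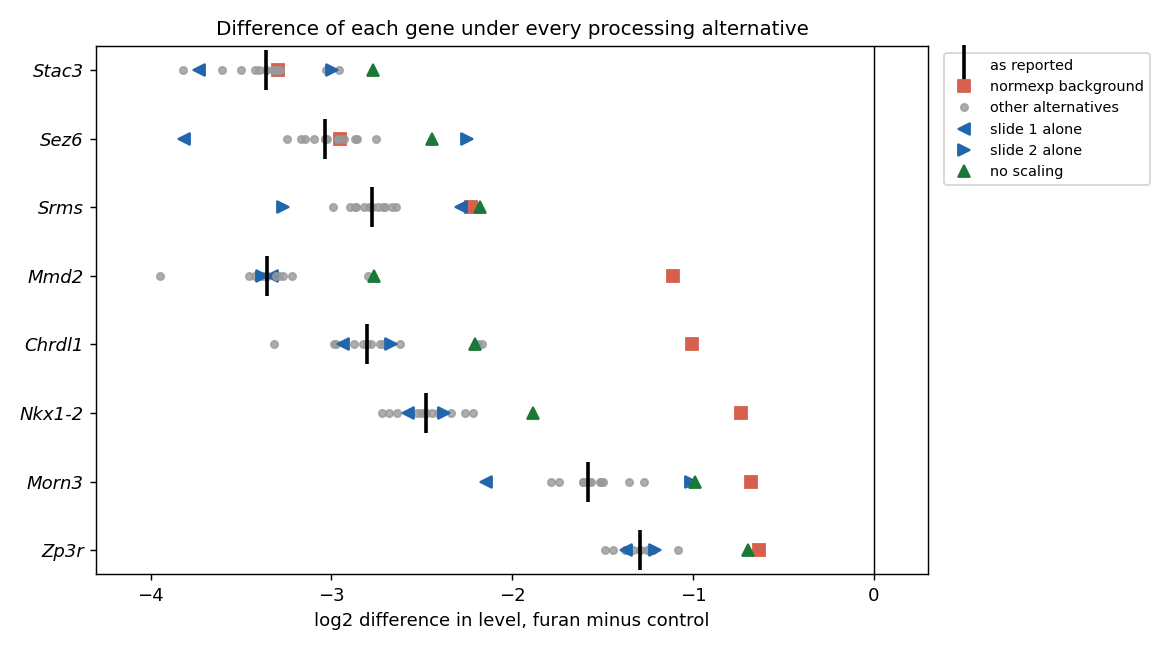
Log2 difference in level, furan minus control, of each gene as reported (black bar) and under each processing alternative, with normexp in red, no scaling in green, single slides as blue triangles and the others in grey. All values lie below 0; for Stac3 and Sez6 normexp lies near the reported value, and for the 5 dim genes it lies nearest to 0.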

How the data were processed

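Per the file headers, the authors extracted spot signals with Agilent Feature Extraction 10.7 and deposited, for each array, the processed signal of every spot, an intensity from which background had been subtracted. The deposited series table equalled that signal scaled to a 75th percentile of 1000 per array, and it served as an alternative. Probe coordinates are on rn4, per the file headers. Gene names came from the transcript identifiers or symbols of the array annotation, matched to RefSeq names where they matched.

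Flagged spots were left out, none of them a member's, and the spots of a probe were averaged as log2 values. Of 30367 probes, 170 had no usable spot on some array. Levels are log2 signal minus the log2 75th percentile of the array. A probe was tested if either group had it well above background on every one of its 4 arrays, and the brightest tested probe stood for a gene, which gave 17786 features, 4599 of them without a symbol. The furan and control arrays were fitted with lmFit and eBayes of limma 3.58.1 in R 4.3.3, two-sided. P-values were adjusted over all features by Benjamini-Hochberg, and a gene was called below 0.05. The procedure was tested on simulated data. Where nothing says otherwise, an array is 1 rat, as the design text counts them. The number of arrays limits the precision. Folds at the floor hold only for the floor and the scaling given. The normexp offset was 50.

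The 8 genes, the lists of relatives and markers and the tests were chosen with earlier results of these data known. Named relatives are, in each list, the 3 called genes of largest change in the direction most called genes took and the largest of the other direction. Named neighbours are those called with a change of at least 1, and others, called or not, were named outside this rule. The 3 nearest profiles of each gene and the other features lost after furan are named too. Some genes of the lists are not reported here. Other called genes of a list were added after their values were seen. Same-numbered control and furan arrays did not deviate together (correlations -0.30, 0.12, 0.28 and 0.04), so the numbers were not taken to pair animals. RefSeq promoters matched 7 of the 8 genes.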

Additional observations from a re-analysis of the deposited data

Results flagged for a closer look

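Among 98 groups of 4 arrays, those of the 8 genes and of the named relatives and neighbours, 3 held an array that stood apart from the other 3 by Dixon's criterion at the 95% level. Chance alone gives about 1 in 20 such groups. The Zp3r level of control 1 was -6.14, against -7.02 to -6.89 on the other controls. On furan 1 the Zp3r level was -7.59, against -8.26 to -8.17 on the other furan arrays. Adipor2, an adiponectin receptor related to Mmd2, read 1.64 on furan 2 and 1.81 to 1.82 on the other furan arrays.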

How the results depend on the processing

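For the 8 genes, 136 values under alternatives kept the direction of the fall, and 16 of them moved by more than the spread between replicates. Those from the series table and from keeping flagged spots could not differ. With normexp, the features lower after furan numbered 6050 against 2994, the relatives lower 53 against 30 and the relatives higher 8 against 14; the cause was not tested. On slide 1 alone, with 2 arrays a group, limma called 121 features higher and 33 lower, 0 relatives higher and 1 lower, and 0 neighbours higher and 1 lower. At an unadjusted p below 0.05, 18 relatives were higher and 29 lower there, and 3 neighbours higher and 9 lower. On slide 2 alone the calls were 669 and 449 features, 5 and 8 relatives, and 2 and 4 neighbours. Fewer arrays entered these fits. With the replicate block, which pairs arrays of the same number although the check gave no ground for pairing, 2395 features were higher and 2187 lower, 14 relatives higher and 25 lower, and 2 neighbours higher, against 4, and 9 lower. Leaving out 1 array at a time gave 2247 to 3036 features higher and 1940 to 2969 lower, the lowest of both without furan 2. It gave 11 to 14 relatives higher and 22 to 30 lower, and 3 to 4 neighbours higher and 8 to 11 lower. Without control 2 and furan 1 together, an alternative chosen after seeing the data like the unscaled signals, 2535 features were higher and 2321 lower. The unfiltered fit moved the median change of all features to -0.12. Signal over background limits the 5 dim genes, whose furan levels were not well above background.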
